A study of Caenorhabditis elegans with 12 samples.

Results

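Messenger RNA from the polysome fraction was compared between 2 genotypes of the nematode Caenorhabditis elegans, labelled wt and glh1. The comparison rests on 6 of the 12 libraries of the series, 3 polysomal libraries of each genotype, chosen by their genotype and fraction labels, and the other 6 libraries hold total RNA. Each polysomal library came from its own liquid culture, whose synchronized larvae were fed OP50 bacteria and harvested after about 40 h at 20 °C, when most were young adults. One part of each lysate, per the labels, gave total RNA, and the other was run through a 10 to 50% sucrose gradient with cycloheximide in the lysis buffer, from which the polysome fraction was kept. No drug or other treatment separated the groups. The glh1 allele and the strain backgrounds are not given in the sources used here, so genotype and strain cannot be told apart.

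Polysomes are mRNAs that carry several ribosomes, and the mRNA found in this fraction is usually taken as a measure of what is being translated. GLH-1 is a DEAD-box helicase of the Vasa family that sits in P granules, the RNA-rich bodies around germ cell nuclei. In whole worms the polysomes of germ cells, sperm precursors, intestine, muscle, epidermis and neurons are mixed, and fewer cells of a type cannot be told apart from less RNA per cell.

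The series as a whole held 4 groups of 3 libraries with 34520267 to 49672537 estimated counts each, and the 6 polysomal libraries held 35930865 to 45704125. The mRNA of glh-1 itself was higher, not lower, in the polysomal libraries labelled glh1. The gene (WBGene00001598, chromosome I, 6854478 to 6857536, WBcel235) measured 292.7, 388 and 384 CPM in the 3 wt libraries and 879.7, 906 and 1495 CPM in the glh1 libraries. Every library labelled glh1 lay above every wt library, a log2 difference of 1.62 ± 0.26 (SE; adjusted p = 0.0116), a call lost without wt library 2 or 3 (adjusted p from 0.0577 to 0.0684). In total RNA of the same cultures the log2 difference of glh-1 was 0.68 ± 0.26 (SE; adjusted p = 0.200), which was not called. The allele is not given, and an mRNA level does not test it. The genotype name glh1 is used as the label of these libraries only. The tissue label reads whole embryo, but all 8 oocyte, 7 sperm, 6 intestine and 5 body muscle markers exceeded 1 CPM in every polysomal library, among them the adult yolk gene vit-2 at 3527, 7753 and 8151 CPM in wt and 5529, 6125 and 5321 CPM in glh1. Of 9 markers of developing embryos, 7 passed the filter on low counts, 5 exceeded 1 CPM in every polysomal library, and their summed level was 106 to 127 CPM in wt and 69.5 to 123 CPM in glh1. Of 4 male markers, 2 passed the filter and none exceeded 1 CPM in every library. CPM is the count scaled to a common library size with the trimmed mean of M-values.

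The 3 glh1 libraries did not resemble each other equally, and library 3 stood apart. Between glh1 libraries 1 and 2 the log2 levels of genes differed with an SD of 0.392, and 2.75% of the 16526 genes tested were more than 2-fold apart. Library 3 differed from them with SDs of 1.03 and 1.07, and 31.6% and 33.1% of genes were more than 2-fold apart. It was the highest or the lowest of the 6 polysomal libraries for 66.3% of genes, against 20.3% to 35.7% for each of the others. On the first principal component of the 6 libraries, which held 45.9% of the variance, library 3 lay at 108 and the other 5 between -34.97 and -12.1. Library 3 did not stand out in depth, with 35930865 estimated counts, or in the share of rRNA, 16.4%, which was 3.07% and 45.7% in glh1 libraries 1 and 2 and 4.89%, 7.34% and 9.51% in the wt libraries.

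The wt libraries were not uniform either. On the second component, which held 32.3% of the variance, wt library 1 lay at 37.5, beside glh1 libraries 1 and 2 at 37.8 and 37.7, while wt libraries 2 and 3 lay at -56.6 and -50.7. Wt library 1 differed from glh1 library 1 with an SD of 0.587 over log2 levels, less than its SDs of 0.856 and 0.821 from the other 2 wt libraries. Glh1 library 3 lay between, at -5.70, so wt library 1 sat with 2 of the 3 libraries of the other genotype on this axis.

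**Figure D1:**
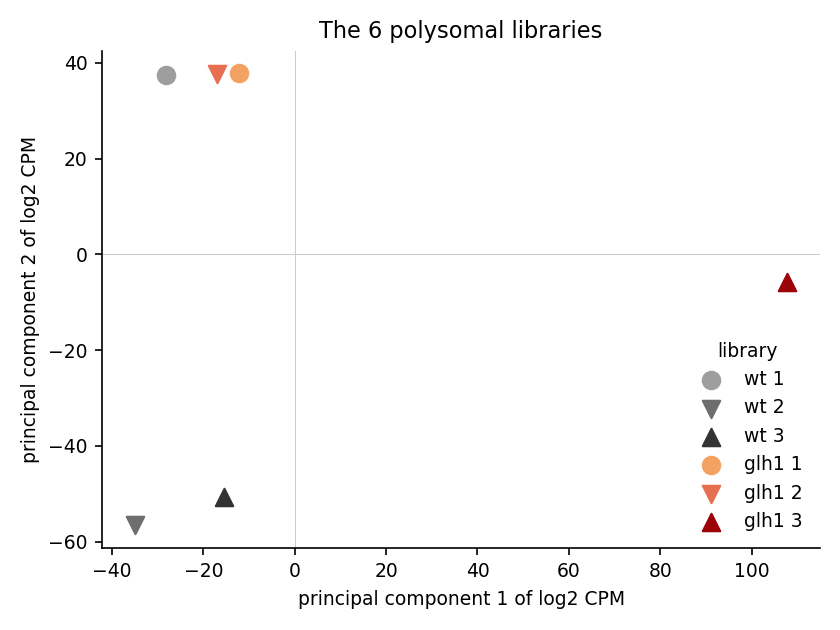
The 6 polysomal libraries on the first (x) and second (y) principal components of log2 CPM, in arbitrary units; each point is 1 library, grey for wt and orange to red for glh1. Glh1 library 3 lies alone at 108 on the first component, and wt library 1 lies beside glh1 libraries 1 and 2 near 38 on the second.

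Library 3 was richer in short mRNAs than its 2 companions. Among 15761 protein-coding genes with an annotated length, the 3162 with the shortest exons (30 to 750 bases summed over the gene) had a median log2 level 0.80 higher in library 3 than the mean of libraries 1 and 2. The 3150 with the longest exons (2219 to 56044 bases) had a median 0.33 lower. In all, 2330 genes were more than 2-fold higher in library 3 than the mean of libraries 1 and 2, with a median exon length of 669 bases, and 2909 were more than 2-fold lower, with a median of 1552 bases. Relative to the wt mean, the Spearman correlation of level with exon length across genes was -0.30 in library 3, 0.13 and 0.16 in glh1 libraries 1 and 2, and -0.21 to 0.07 in the wt libraries. These correlations are over genes of the same libraries, which are not independent, and they are given as a description.

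**Figure D2:**
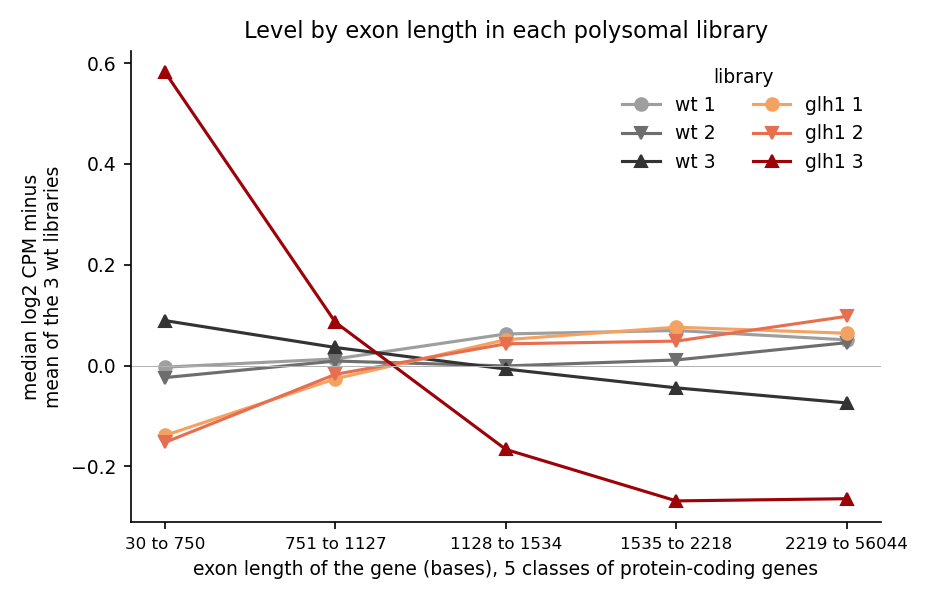
Median log2 CPM minus the mean of the 3 wt libraries (y) in 5 classes of protein-coding genes by summed exon length in bases (x), 1 line per polysomal library. Glh1 library 3 falls from 0.58 in the shortest class to -0.26 in the longest, whereas the other 5 libraries stay between -0.15 and 0.10.

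Named genes show how far library 3 departed. The genes furthest below libraries 1 and 2, among those with a class symbol and a mean of at least 10 CPM over the 3 libraries, included the ESCRT gene tsg-101, at 49.3, 47.03 and 3.21 CPM in glh1 libraries 1, 2 and 3. The DNA repair helicase gene xpd-1 measured 20.8, 22.5 and 0.985 CPM, the SNAP-25 homolog ric-4 20.1, 29.1 and 1.93 CPM and the autophagy gene epg-3 42.6, 35.5 and 2.99 CPM. In wt these 4 genes did not show such a gap, with tsg-101 at 45.7, 47.1 and 36.4 CPM and xpd-1 at 17.6, 15.3 and 14.8 CPM. The regulatory subunit genes aakg-4 (26.3, 30.6 and 1.71 CPM) and ppfr-4 (59.6, 69.7 and 5.29 CPM), of AMP-activated kinase and of protein phosphatase 4, followed the same pattern, as did tbc-14, ttr-49 and adpr-1. The gene nspc-15, whose peptide family is specific to nematodes, had 73.8, 0.0254 and 0 CPM in wt and 0.204, 30.9 and 0 CPM in glh1, and was therefore scattered in both genotypes. At the other end stood short genes of secreted and ribosomal proteins. The antimicrobial peptide gene cnc-8 measured 10.6, 9.75 and 51.3 CPM in glh1 libraries 1, 2 and 3, the cuticle collagen gene col-146 8.87, 10.9 and 41.9 CPM, and the acidic ribosomal protein gene rla-2 201, 232 and 864 CPM. The other genes furthest above were col-7, col-85, bli-6, the major sperm protein genes msp-3, msp-33 and msp-45, and the noncoding RNA rncs-1. For cnc-8, col-146 and rla-2 the library that stood apart was the one nearest to wt libraries 2 and 3, at 37.1 and 40.6 CPM for cnc-8, 59.0 and 60.6 CPM for col-146, and 649.5 and 572 CPM for rla-2.

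Between genotypes, 90 of 16526 genes (0.545%) were higher and 85 (0.514%) lower in the polysomal libraries labelled glh1, at an adjusted p under 0.05 in a model of all 12 libraries. All 175 genes had groups that did not overlap, which across all tested genes held for 1566 (9.48%) upward and 1335 (8.08%) downward. The change was at least 2-fold for 79 of the 90 and 82 of the 85, and 87 and 76 of them were protein coding. Library 3 was more extreme in the rises than in the falls. It was the most extreme of the 3 glh1 libraries for 70 of the 90 higher genes and 39 of the 85 lower genes. Over the higher genes the median log2 difference from the wt mean was 1.53, 1.34 and 2.12 in glh1 libraries 1, 2 and 3, and over the lower genes it was -1.81, -1.69 and -1.85.

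Most of the calls did not need library 3, and its absence added others. Without it, 86 of the 90 higher and 82 of the 85 lower genes kept their calls, and of 16865 genes tested 154 (0.913%) were higher and 248 (1.47%) lower. Leaving out wt library 2 gave 16 higher and 40 lower genes, and wt library 3 gave 18 and 30. Without glh1 library 1 the counts were 47 and 31, and without wt library 1 113 and 207. Leaving out glh1 library 2 gave 91 and 51. Only 15 higher and 24 lower genes were called with each of the 6 libraries left out in turn. With both libraries of wt culture 1 left out the counts were 682 (4.11%) and 774 (4.66%) of 16607. In a fit of the 6 polysomal libraries alone, which leaves 4 residual degrees of freedom, 0 genes were higher (0%) and 3 of 15911 lower (0.0189%). These were Y102A5C.2, ztf-28 and F52C6.3, while 1487 genes had an unadjusted p under 0.05, and DESeq2 and limma were not run on these 6 alone.

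The named genes that rose included several of secreted proteins. The gene thn-1 encodes a thaumatin-family protein, a fold known from plant defence. In polysomal RNA it measured 93.6, 109.8 and 123 CPM in the 3 wt libraries and 514, 457 and 1177 CPM in the glh1 libraries. All 3 glh1 libraries exceeded every wt library, library 3 by the most, and the log2 fold change of 2.72 was 2.16 without it. The scl genes encode proteins of the SCP/TAPS superfamily, cysteine-rich proteins that many nematodes secrete. The level of scl-5 was 77.4, 56.2 and 55.8 CPM in wt and 207, 159 and 283 CPM in glh1, a log2 difference of 1.78 ± 0.24 (SE; adjusted p = 0.00334). Both genes kept their calls with any 1 polysomal library left out. Another gene of this list, scl-14, had 1.84, 3.17 and 3.56 CPM in wt and 8.87, 7.03 and 18.1 CPM in glh1, and its call was lost without glh1 library 1 or wt library 1 or 2 or 3 (adjusted p from 0.0644 to 0.140). Of the 24 tested genes of the SCP/TAPS and thaumatin list (32 members), these 3 rose and none fell, where 0.545% of all genes rose and 0.514% fell. Every glh1 library was above every wt library for 9 of the 24 and below for 1, where 9.48% and 8.08% of all genes were. The median of the list was 0.04 beside -0.01 over all genes.

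Other called rises spanned low and high levels. The gene clx-1 (WBGene00000551, chromosome IV, 7734648 to 7736324) measured 4.45, 2.59 and 3.67 CPM in the 3 wt libraries and 38.1, 32.4 and 93.0 CPM in the glh1 libraries, and tag-293 (WBGene00015398, chromosome V, 7354435 to 7355564) had 0.161, 0.279 and 0.186 CPM in wt and 2.80, 2.304 and 5.84 CPM in glh1. Libraries 1 and 2 lay close together for both genes and library 3 well above them. Near clx-1 on chromosome IV, C50F7.5 was expressed at 135, 209.6 and 211 CPM in wt and 949, 903 and 882 CPM in glh1, and here library 3 did not exceed its companions. Its log2 difference was 2.299 ± 0.25 (SE; adjusted p = 8.65e-04), and all 3 genes kept their calls with any 1 library left out. The vitelline membrane outer layer homolog vmo-1 had 119.3, 79.1 and 80.8 CPM in wt and 268, 273 and 394 CPM in glh1, with the groups well apart, and its call was lost without wt library 2 or 3 (adjusted p from 0.0881 to 0.113). The tetraspanin gene tsp-4, which encodes a membrane protein, had 0.355, 0.102 and 0.106 CPM in wt and 1.12, 1.65 and 1.204 CPM in glh1, and its call was lost without wt library 2 or 3 (adjusted p from 0.0892 to 0.0931). An acyltransferase homolog, oac-31, went from 0.914 to 0.983 CPM in wt to 4.54, 3.20 and 2.08 CPM in glh1, with library 3 the lowest of the 3, and its call was lost without glh1 library 1 or wt library 2 or 3 (adjusted p from 0.0752 to 0.0924). The gene txt-12 had 0.904, 0.305 and 0.797 CPM in wt and 1.77, 2.36 and 4.23 CPM in glh1, a call lost without glh1 library 2 or wt library 2 or 3 (adjusted p from 0.0523 to 0.124).

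**Figure D3:**
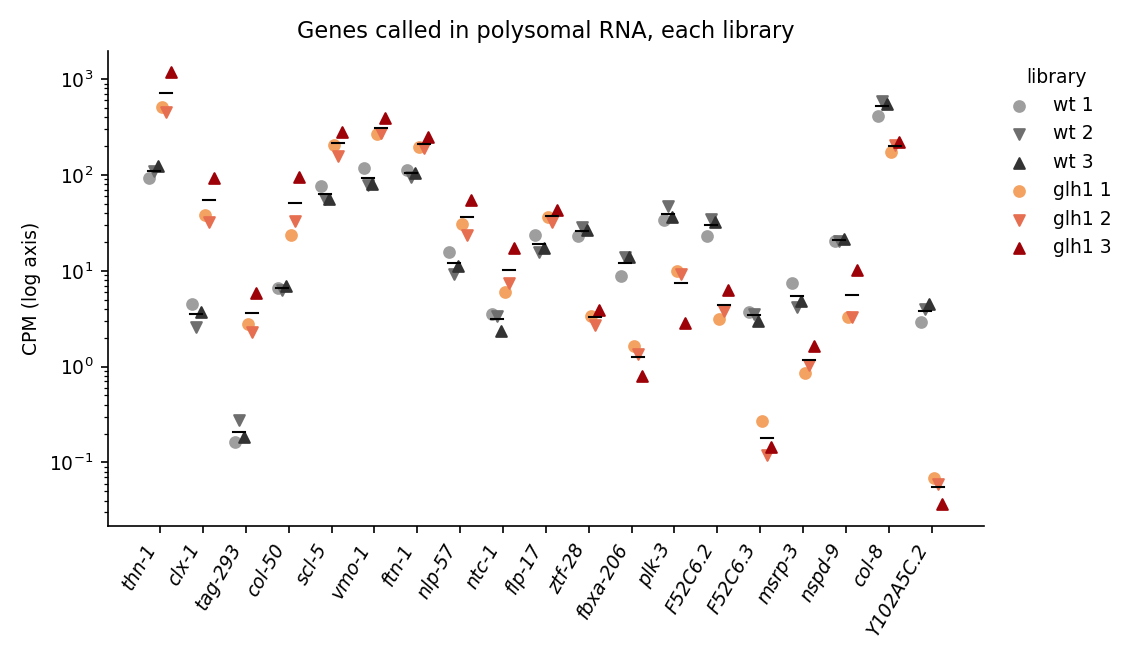
Levels in CPM on a log axis (y) of 19 genes called in polysomal RNA (x), with 1 point per library and a black bar at the mean of each group of 3. For the genes on the left, thn-1 to flp-17, every glh1 library lies above every wt library, and for those on the right, ztf-28 to Y102A5C.2, below.

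Iron and redox genes moved singly. The ferritin gene ftn-1, whose product stores iron in the intestine, measured 112.4, 94.9 and 106 CPM in the 3 wt libraries and 196, 191 and 248 CPM in the glh1 libraries, a log2 difference of 1.02 ± 0.16 (SE; adjusted p = 0.0105), a call lost without wt library 2 or 3 (adjusted p from 0.0604 to 0.0838). It was the only gene called of the 24 tested iron and metal genes (27 members). The omega-class glutathione S-transferase gene gsto-3 measured 14.6, 11.5 and 13.7 CPM in wt and 26.3, 23.3 and 32.9 CPM in glh1, with no overlap and a call lost without glh1 library 1 or wt library 2 or 3 (adjusted p from 0.0628 to 0.122). Of 44 tested glutathione S-transferases (49 members) it was the only one called, and the list median was -0.04. None of the 61 tested cytochromes P450 (74 members) and none of the 61 tested UDP-glucuronosyl transferases (67 members) was called.

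The sharpest falls were few, and all 3 glh1 libraries shared them. Y102A5C.2, which has no class name, measured 2.95, 4.01 and 4.54 CPM in the 3 wt libraries and 0.0680, 0.0598 and 0.0365 CPM in the glh1 libraries. The zinc finger gene ztf-28 (WBGene00018099, chromosome V, 2090669 to 2091740) measured 23.2, 28.3 and 26.9 CPM in the 3 wt libraries and 3.35, 2.69 and 3.87 CPM in the glh1 libraries, and F52C6.3 measured 3.73, 3.53 and 3.00 CPM in wt and 0.272, 0.120 and 0.146 CPM in glh1. The glh1 libraries lay close together for ztf-28, and library 3 did not stand apart from its companions for any of these 3 genes. For plk-3, a gene of the polo-like kinase family of cell division kinases, the values were 33.8, 47.8 and 36.4 CPM in wt and 10.0, 9.34 and 2.88 CPM in glh1, so that library 3 lay well below its companions. Its log2 difference was -2.40 ± 0.39 (SE; adjusted p = 0.0129), and -2.02 without library 3. The kynurenine pathway gene haao-1 had 3.69, 9.01 and 8.37 CPM in wt and 1.61, 2.12 and 1.2404 CPM in glh1. There wt library 1 lay between the other wt libraries and glh1, and the call was lost without glh1 library 1 or 2 or 3 or wt library 2 or 3 (adjusted p from 0.0513 to 0.139).

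The called genes were unevenly placed on the chromosomes. Chromosome V held 31.1% of the higher and 29.4% of the lower genes against 20.5% of the genes tested, and chromosome II held 27.1% of the lower genes against 17.6%. The X chromosome held 2 of the 85 lower genes (2.35%) against 13.8% of genes tested. Runs of called genes whose starts lay within 50 kb of the next numbered 7 upward, of 14 genes in all, and 9 downward, of 23 genes. Position by itself was not tested, and a difference between strains in a stretch of genome cannot be told apart from an effect of the genotype.

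Both runs of 3 or more genes were downward, and in both every tested gene of the stretch was lower. The longer one covered 10196 bases of chromosome II (1919888 to 1930083, WBcel235) with 6 of 6 genes, bath-7, bath-2, F52C6.4, F52C6.3, F52C6.2 and the pseudogene WBGene00018669. The bath genes encode proteins with BTB and MATH domains, which serve as substrate adaptors of cullin 3 ubiquitin ligases. In this stretch bath-7 had 0.920, 1.17 and 1.06 CPM in wt and 0.340, 0.299 and 0.182 CPM in glh1, and bath-2 had 14.2, 11.7 and 14.4 CPM in wt and 5.27, 6.10 and 8.21 CPM in glh1. F52C6.2 measured 23.2, 34.9 and 32.5 CPM in the 3 wt libraries and 3.11, 3.83 and 6.28 CPM in the glh1 libraries, and F52C6.4 had 1.55, 1.12 and 0.930 CPM in wt and 0.119, 0.180 and 0.292 CPM in glh1. The falls ranged from -1.05 for bath-2 to -4.15 for F52C6.3 on the log2 scale, and in total RNA the same 6 genes had log2 fold changes from -2.66 for F52C6.2 to -1.26 for bath-2. The call of bath-2 was lost without glh1 library 1 or 2 or wt library 2 or 3 (adjusted p from 0.0746 to 0.156) and that of WBGene00018669 was lost without glh1 library 1 or 2 or wt library 2 or 3 (adjusted p from 0.0607 to 0.0943). The other 4 genes of this stretch kept their calls with any 1 polysomal library left out.

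The shorter run covered 4123 bases of chromosome V (16917201 to 16921323). It held Y102A5C.2, the pseudogene WBGene00013612 and fbxa-206, which encodes an F-box protein, the part of an SCF ubiquitin ligase that picks its substrate. The level of fbxa-206 was 8.81, 13.8 and 13.9 CPM in wt and 1.65, 1.35 and 0.803 CPM in glh1, and library 3 was the lowest. WBGene00013612 had 0.581, 0.355 and 0.452 CPM in the wt libraries and no count in the 3 glh1 libraries. These 3 genes also fell in total RNA, fbxa-206 by a log2 fold change of -3.19 (adjusted p = 7.76e-04) and Y102A5C.2 by -5.44 (adjusted p = 1.25e-05).

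Few genes of the ubiquitin adaptor families were called outside these runs. Of 72 tested BATH, MATH and BTB genes (90 members) 4 fell and none rose, and of 230 tested F-box genes (322 members) 2 fell and none rose, where 0.514% of all genes fell. Every glh1 library was below every wt library for 17 of the 72 and 28 of the 230, where 8.08% of all genes were. Besides bath-7 and bath-2 the called genes of the first list were bath-1 and btb-4, which lie within 5632 bases of each other on chromosome II. The level of bath-1 was 1.53, 2.23 and 2.68 CPM in wt and 0.170, 0.299 and 0.657 CPM in glh1, a call lost without glh1 library 1 or 2 or wt library 2 or 3 (adjusted p from 0.0901 to 0.147). The level of btb-4 was 1.48, 1.62 and 3.14 CPM in wt and 0.374, 0.449 and 0.839 CPM in glh1, a call lost without glh1 library 1 or 2 or wt library 2 or 3 (adjusted p from 0.0897 to 0.165). The second F-box gene that fell was fbxc-45, at 11.5, 15.3 and 13.98 CPM in wt and 4.06, 3.41 and 6.24 CPM in glh1, a call lost without glh1 library 1 or wt library 2 (adjusted p from 0.0525 to 0.0543). The medians were -0.28 and -0.22, and by library they were -0.19, -0.06 and -0.50 and -0.07, -0.20 and -0.64 in glh1 libraries 1, 2 and 3, lowest in library 3 in both. Without library 3, 6 BATH, MATH and BTB genes and 4 F-box genes were lower and 1 F-box gene was higher. In that fit 1.47% of all genes were lower and 0.913% higher.

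The values of sperm genes depended on which glh1 library was read. Major sperm proteins are small cytoskeletal proteins that drive the crawling of nematode sperm and also signal to oocytes, and their mRNAs are made in spermatocytes. The 30 tested msp genes (31 members) summed to 1425, 1447 and 4944 CPM in glh1 libraries 1, 2 and 3 and to 3957, 4494 and 5189.9 CPM in the wt libraries. Libraries 1 and 2 thus lay far below every wt library and library 3 inside their range. The median log2 difference from the wt mean was -1.79, -1.72 and 0.01 in glh1 and -0.26, 0.05 and 0.22 in wt. For 29 of the 30 genes both library 1 and library 2 lay below all 3 wt libraries, as for 16.6% of all genes, and library 3 followed for 6 of these 29, fell within the wt range for 16 and above it for 7.

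No msp gene was called with all libraries, and 28 of 30 were lower without library 3, where 1.47% of all genes were. Without library 3 the median log2 fold change moved from -0.90 to -1.77. The largest of the differences was that of msp-63, with 6.79, 8.50 and 8.08 CPM in wt and 1.12, 1.53 and 4.30 CPM in glh1, where the log2 difference was -1.77 ± 0.41 (SE; adjusted p = 0.0665) with library 3 and -2.57 (adjusted p = 3.04e-04) without it. The gene msp-142 had 88.3, 111.8 and 110.2 CPM in wt and 18.99, 19.8 and 67.2 CPM in glh1, and its log2 fold change went from -1.55 ± 0.40 (SE; adjusted p = 0.0961) to -2.41 (adjusted p = 4.77e-05). The gene msp-3 had 41.3, 68.5 and 72.0 CPM in wt and 25.2, 27.2 and 104.2 CPM in glh1, with library 3 the highest of all 6. These genes are near copies of each other, and how reads that match several of them were divided is not known, so the sum over the family is the firmer value.

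Total RNA of the same cultures showed a smaller gap without such scatter. The msp median log2 difference from the wt total mean was -0.65, -0.58 and -0.62 in the 3 glh1 total libraries, and no msp gene was called there. The difference of the genotype effect between fractions had a median of -0.28 with all libraries, and 0 of 30 genes had an unadjusted p under 0.05. Without library 3 the median was -1.18 and 28 of 30 had an unadjusted p under 0.05, as had 1563 of the 16865 genes tested in that fit, but no gene passed the adjusted threshold with edgeR in either fit.

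The small peptide genes grouped with sperm were also read differently with and without library 3, and no spe or fer gene was called. Of 38 tested genes of these small peptide families (40 members), 3 were lower, where 0.514% of all genes were, and 27 were lower without library 3, where 1.47% were. Another 2 had every glh1 library above every wt library, and in total RNA 3 genes of the list were called higher and none lower. The called genes were msrp-3 and msrp-4, neighbours on chromosome II, and nspd-9. The level of msrp-3 was 7.49, 4.16 and 4.81 CPM in wt and 0.849, 1.05 and 1.64 CPM in glh1, a call kept with any 1 polysomal library left out. The level of msrp-4 was 3.32, 2.61 and 4.199 CPM in wt and 0.697, 0.598 and 1.61 CPM in glh1, a call lost without glh1 library 1 or 2 or wt library 1 or 2 or 3 (adjusted p from 0.0522 to 0.207). Glh1 libraries 1 and 2 agreed for nspd-9 and library 3 lay between them and wt, at 20.4, 20.6 and 21.5 CPM in wt and 3.31, 3.32 and 10.3 CPM in glh1, a call lost without glh1 library 1 or 2 or wt library 2 or 3 (adjusted p from 0.0779 to 0.117). By library the list's medians were -1.21, -1.103 and 0.43 in glh1. The spe and fer genes, which act in sperm assembly, activation and fertilization, showed no such fall, with 0 of 35 tested (36 members) called and medians of 0.18, 0.09 and 0.36 in glh1 libraries 1, 2 and 3. The median exon length was 384 bases for the msp genes, 330.0 for the small peptide genes and 1269 for the spe and fer genes, which moves with the difference between libraries. With a trend of level on exon length removed from every library, 21 of 30 msp genes and 16 of the small peptide genes were lower with all 6 polysomal libraries in the fit, where 1.08% of all genes were.

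**Figure D4:**
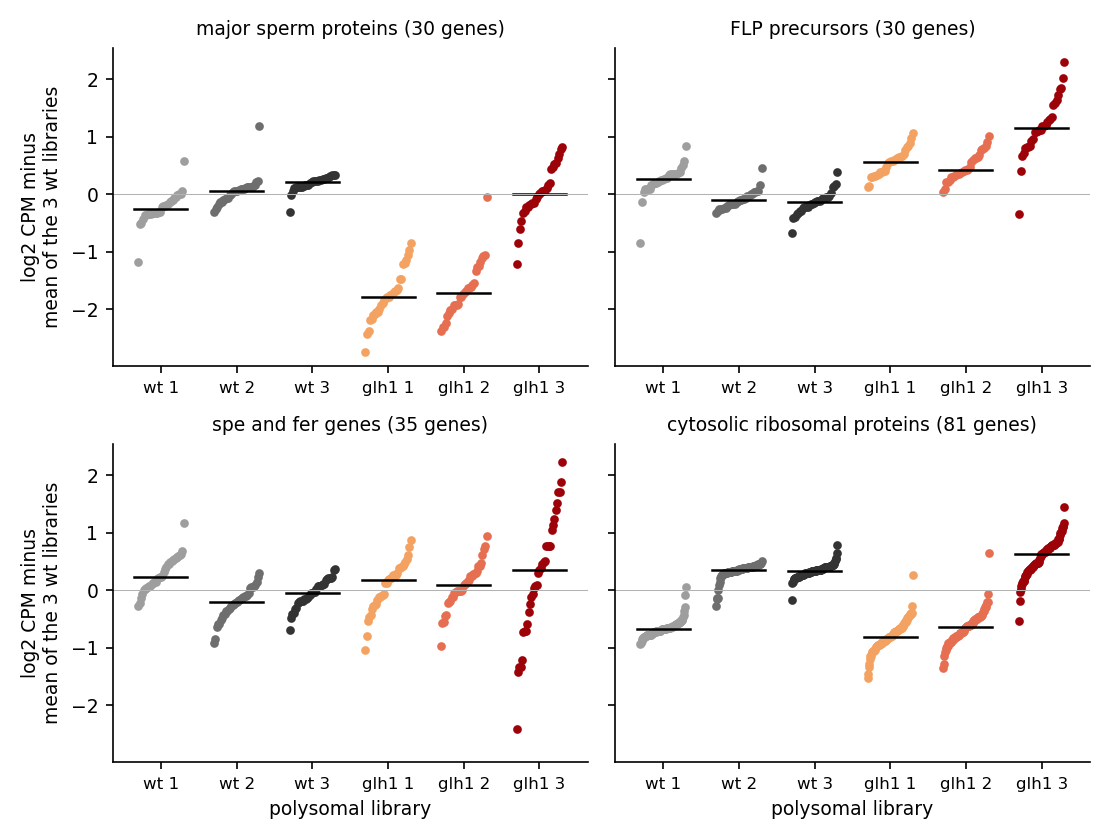
Log2 CPM minus the mean of the 3 wt libraries (y) for every tested gene of 4 lists in each polysomal library (x), sorted within a library, with a black bar at the median. The major sperm protein genes sit near -1.79 and -1.72 in glh1 libraries 1 and 2 and around 0.01 in library 3, while the FLP precursors are highest in library 3.

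The medians of the neuropeptide precursor lists were higher in each glh1 library than in any wt library, and few genes passed the test singly. Neuropeptides are cut from short precursor proteins in neurons and act on receptors of other cells. For 24 of the 30 tested FLP precursors (31 members) every glh1 library exceeded every wt library, where 9.48% of all genes did, and 1 was called. By library the FLP medians were 0.57, 0.42 and 1.15 in glh1 libraries 1, 2 and 3 and 0.26, -0.11 and -0.14 in wt libraries 1, 2 and 3. The order of the libraries was the same for the NLP and PDF precursors, at 0.54, 0.41 and 0.99 in glh1 and 0.26, -0.13 and -0.14 in wt, and 34 of 72 tested (74 members) had groups apart upward. The insulin-like peptides, ligands of the DAF-2 receptor, had 0.47, 0.25 and 1.36 in glh1 and 0.19, -0.21 and 0.04 in wt, and 14 of 35 tested (39 members) had groups apart upward. Not all precursors shared this direction. Glh1 libraries 1 and 2 both lay below every wt library for 7 NLP and PDF precursors (9.72%) and 3 insulin-like peptides (8.57%), where 16.6% of all genes did. In each of these 3 lists library 3 was the highest and wt library 1 the highest of its group. The rise was also seen in total RNA. There the median log2 fold changes of the FLP, NLP and PDF, and insulin-like lists were 0.55, 0.57 and 0.58. In polysomal RNA they were 0.76, 0.74 and 0.78. No member of these lists had an unadjusted p under 0.05 for the difference between fractions with edgeR.

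The called gene among the FLP precursors was flp-17, which the BAG sensory neurons make and which slows egg laying. It measured 23.7, 15.8 and 17.3 CPM in the 3 wt libraries and 36.6, 32.6 and 43.1 CPM in the glh1 libraries, and its call was lost without glh1 library 1 or 2 or wt library 2 or 3 (adjusted p from 0.0572 to 0.262). Among the NLP and PDF precursors 4 rose. The largest change was that of ntc-1, the precursor of nematocin, a relative of oxytocin and vasopressin, at 3.53, 3.40 and 2.37 CPM in wt and 6.06, 7.42 and 17.4 CPM in glh1, with a call lost without wt library 1 or 2 or 3 (adjusted p from 0.0642 to 0.201). The level of nlp-57 was 15.5, 9.19 and 11.2 CPM in wt and 30.9, 23.4 and 54.5 CPM in glh1, a call lost without wt library 2 or 3 (adjusted p from 0.118 to 0.132). The gene nlp-13 had 37.1, 28.7 and 25.2 CPM in wt and 53.6, 51.9 and 69.7 CPM in glh1, a call lost without glh1 library 1 or 2 or wt library 2 or 3 (adjusted p from 0.0573 to 0.235). For nlp-69 the values were 16.1, 12.5 and 12.1 CPM in wt and 24.4, 24.1 and 26.6 CPM in glh1, tight in both groups, and its call was lost without glh1 library 1 or 2 or wt library 2 or 3 (adjusted p from 0.0792 to 0.217). Of the insulin-like peptides ins-3 rose, with 3.94, 2.03 and 3.19 CPM in wt and 6.63, 7.06 and 13.2 CPM in glh1, a call lost without glh1 library 1 or wt library 2 or 3 (adjusted p from 0.0553 to 0.198). With the length trend removed, 2 FLP precursors, 7 NLP and PDF precursors and 4 insulin-like peptides were higher, where 0.883% of all genes were. Without both libraries of wt culture 1, 8 FLP precursors, 20 NLP and PDF precursors and 8 insulin-like peptides were higher, where 4.11% of all genes were. In that fit 2 NLP and PDF precursors were lower, where 4.66% of all genes were. Without glh1 library 3 the higher genes numbered 1, 7 and 1, where 0.913% of all genes were higher. In the fit of the 6 polysomal libraries alone no member of these lists was called.

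The machinery that makes and releases neuropeptides did not follow library 3. Of 19 tested genes of neuropeptide processing and release none was called with all libraries, and the medians were 0.47, 0.63 and -0.04 in glh1 libraries 1, 2 and 3. The amidating enzyme gene pghm-1 had 171, 125 and 121 CPM in wt and 219, 213 and 213 CPM in glh1, which did not pass (adjusted p = 0.127). The prohormone convertase chaperone gene sbt-1 had 160.0, 109 and 105 CPM in wt and 220.0, 193 and 174 CPM in glh1 (adjusted p = 0.137). Both were higher in every glh1 library than in any wt library. Without library 3, 2 of the 19 were higher. Of 40 pan-neuronal and synaptic genes none was called with or without library 3, and their medians were 0.35, 0.35 and -0.21 in glh1. Their median exon length was 3292 bases, that of the FLP precursors 645. The summed level of the 6 neuron markers was 185 to 199.8 CPM in wt and 219 to 290.2 CPM in glh1, none of them called. Whether more neuronal RNA accounts for the neuropeptide values was not tested.

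Cuticle collagens fell singly, and their general level followed both scattered libraries. Collagens of the col class are secreted by the epidermis and form the cuticle in a sequence tied to each moult. Of 150 tested numbered collagens (156 members) 1 rose and 5 fell, where 0.545% of all genes rose and 0.514% fell, and 22 fell without library 3, where 1.47% did. The one that rose, col-50, had 6.65, 6.24 and 6.91 CPM in wt and 23.5, 33.2 and 95.5 CPM in glh1, a log2 difference of 2.94 ± 0.42 (SE; adjusted p = 0.00610) that was 2.103 (adjusted p = 1.52e-04) without library 3, and its call was lost without wt library 2 (adjusted p = 0.0525). Of those that fell, col-8 had 411, 598 and 549.9 CPM in wt and 175, 203 and 219 CPM in glh1, with no overlap and all 3 glh1 libraries close together, and its call was lost without glh1 library 1 or wt library 2 (adjusted p from 0.0539 to 0.0543). The gene col-135 had 41.9, 35.3 and 39.7 CPM in wt and 13.3, 13.3 and 20.4 CPM in glh1, a call lost without glh1 library 1 or 2 or wt library 3 (adjusted p from 0.0523 to 0.0722). In col-80, with 243, 646 and 738 CPM in wt and 70.9, 86.5 and 174 CPM in glh1, wt library 1 lay below the other wt libraries, and the call was lost without glh1 library 1 or 2 or wt library 2 or 3 (adjusted p from 0.0637 to 0.0943). Likewise wt library 1 was the lowest of its group for col-119, at 716, 1312 and 1203 CPM in wt and 348, 363 and 466 CPM in glh1, and col-160, at 499.9, 1287 and 1198 CPM in wt and 195, 240.2 and 409.6 CPM in glh1. The call of col-119 was lost without glh1 library 1 or 2 or wt library 2 or 3 (adjusted p from 0.0607 to 0.103) and that of col-160 lost without glh1 library 1 or 2 or wt library 2 or 3 (adjusted p from 0.0885 to 0.162). The medians of the numbered collagens were -0.68, -0.40 and 0.62 in glh1 libraries 1, 2 and 3 and -0.59, 0.44 and 0.27 in the wt libraries, so library 3 lay with wt libraries 2 and 3. The adult collagen gene col-19, a hypodermis marker, had 1172, 1322 and 1310.4 CPM in wt and 369.6, 409 and 1003 CPM in glh1, and its adjusted p was 0.158 with library 3 and 0.00161 without it. None of 20 named cuticle collagens was called.

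Ribosomal protein mRNAs split the libraries in the same way. The 81 tested genes of cytosolic ribosomal proteins are short and abundant mRNAs. They summed to 60538, 124220.0 and 122020.0 CPM in wt libraries 1, 2 and 3 and to 58068, 63954 and 150780.0 CPM in glh1 libraries 1, 2 and 3. Thus wt library 1 was like glh1 libraries 1 and 2, and library 3 was above all. None was called with all libraries, and 2 were lower without library 3. The respiratory chain genes (50 tested) had medians of -0.30, -0.30 and 0.57 in glh1 and -0.30, 0.08 and 0.24 in wt, and the proteasome genes (33 tested) 0.03, 0.00 and 0.93 in glh1 and -0.36, 0.14 and 0.20 in wt. None of these was called, nor any of 30 translation factors or 31 aminoacyl tRNA synthetases, with or without library 3. Of 66 mitochondrial ribosomal proteins none was called with all libraries, although for 15 every glh1 library was below every wt library, where 8.08% of all genes were. By library their medians were -0.31, -0.22 and -0.13 in glh1.

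**Figure D5:**
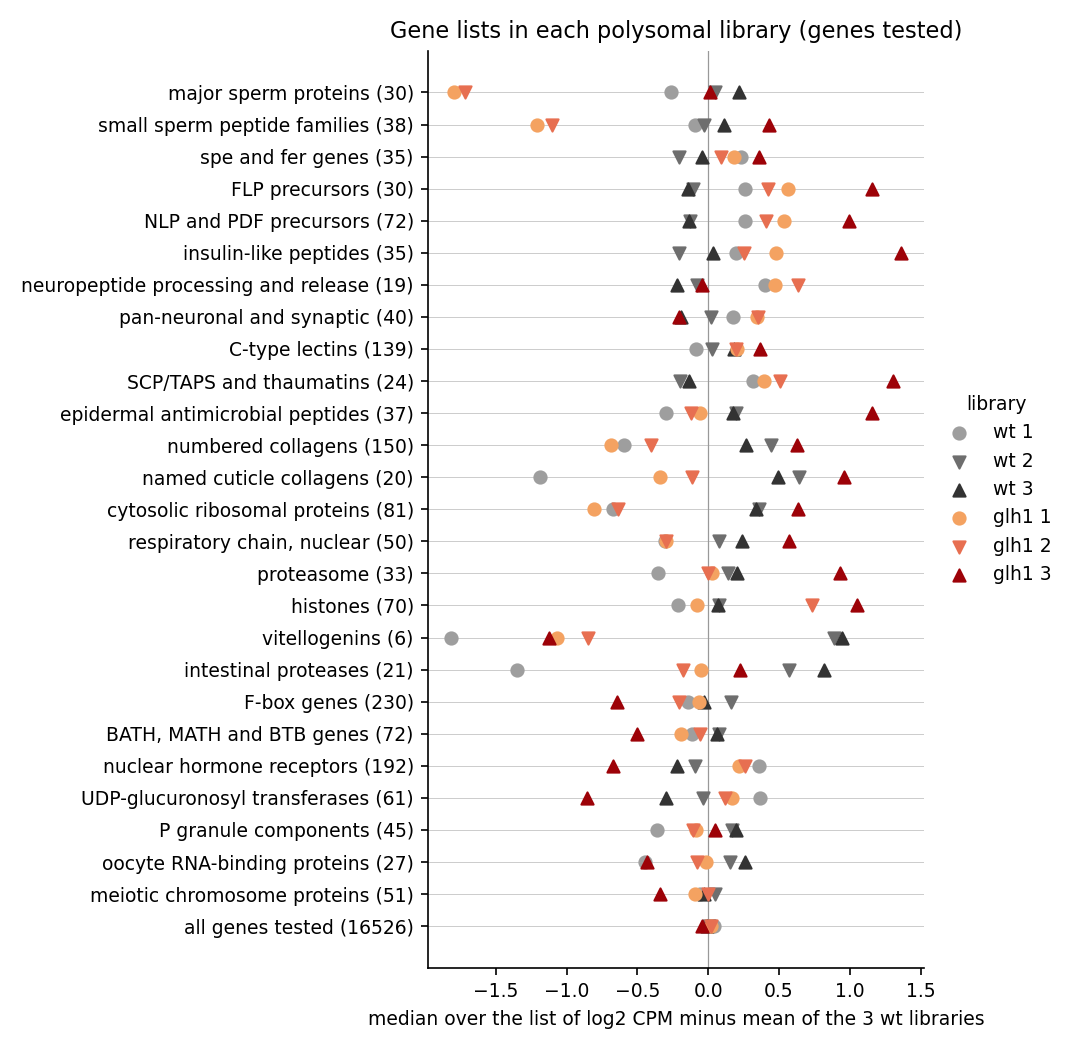
Median over each gene list of log2 CPM minus the mean of the 3 wt libraries (x) for 27 rows of genes (y, number tested in brackets), with 1 point per polysomal library. Library 3, the dark red triangle, lies far right of its companions for major sperm proteins, collagens and ribosomal proteins and left of them for F-box, nuclear hormone receptor and glucuronosyl transferase genes.

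Yolk and digestive genes parted wt library 1 from its group. Vitellogenins are yolk proteins made in the adult intestine and taken up by oocytes. None of the 6 was called, and their medians were -1.82, 0.89 and 0.94 in wt libraries 1, 2 and 3 and -1.07, -0.85 and -1.12 in the glh1 libraries. The values of vit-3 were 0.274, 71.4 and 75.1 CPM in wt and 0.306, 0.419 and 0.803 CPM in glh1, and those of vit-4 were 0.242, 31.6 and 34.1 CPM in wt and 0.680, 0.419 and 0.292 CPM in glh1. In both genes wt library 1 was as low as the glh1 libraries. These genes are close copies of vit-5, which had 309, 1103 and 1253 CPM in wt and 490.5, 508 and 448 CPM in glh1, and the division of shared reads between them is not known. The 21 tested intestinal proteases (25 members) had medians of -1.35, 0.57 and 0.82 in wt and -0.05, -0.18 and 0.22 in glh1, and none was called. With both libraries of wt culture 1 left out, 5 vitellogenins and 8 intestinal proteases were lower, where 4.66% of all genes were.

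Defence families held both directions. C-type lectins are secreted or membrane-bound carbohydrate-binding proteins, many of them induced by infection. Of 139 tested (240 members) 7 rose and 2 fell, where 0.545% of all genes rose and 0.514% fell. For 36 every glh1 library exceeded every wt library, where 9.48% of all genes did, and for 11 every glh1 library was below, where 8.08% were. The level of clec-130 was 0.161, 0.0508 and 0.0266 CPM in wt and 1.36, 0.898 and 1.46 CPM in glh1, of clec-43 1.27, 1.27 and 1.62 CPM in wt and 5.13, 3.98 and 5.18 CPM in glh1, and of clec-138 0.0484, 0.102 and 0.133 CPM in wt and 0.476, 0.539 and 0.620 CPM in glh1. All 3 were higher in each glh1 library, and library 3 exceeded its companions by little. The call of clec-130 was kept with any 1 polysomal library left out, that of clec-43 lost without wt library 2 (adjusted p = 0.0589) and that of clec-138 lost without wt library 2 (adjusted p = 0.0627). Another lectin gene, clec-158, measured 0.662, 0.381 and 0.452 CPM in wt and 2.09, 1.65 and 3.17 CPM in glh1, a call lost without glh1 library 1 or wt library 2 or 3 (adjusted p from 0.0900 to 0.196). The 2 that fell, clec-222 and clec-223, lie next to each other on chromosome V (11271351 to 11278161). The first had 3.40, 3.38 and 4.09 CPM in wt and 1.33, 1.41 and 0.949 CPM in glh1, a call lost without wt library 3 (adjusted p = 0.0579), and the second 2.57, 2.54 and 2.37 CPM in wt and 0.731, 1.08 and 0.657 CPM in glh1, a call kept with any 1 polysomal library left out.

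Short antimicrobial and defence genes were mostly not called. Of 37 tested epidermal antimicrobial peptide genes (53 members) fipr-24 rose, with 1.74, 1.57 and 0.771 CPM in wt and 4.89, 4.73 and 10.6 CPM in glh1, a call lost without wt library 2 or 3 (adjusted p from 0.0922 to 0.0931). The list's medians were -0.06, -0.12 and 1.15 in glh1 libraries 1, 2 and 3. Of 43 tested lysozymes and saposin-like genes (47 members) none was called, with medians of 0.07, 0.07 and 0.98 in glh1. Of 48 tested induced defence genes (56 members) pals-9 fell, with 1.18, 0.584 and 0.558 CPM in wt and 0.136, 0.239 and 0.146 CPM in glh1, a call lost without glh1 library 1 or wt library 2 or 3 (adjusted p from 0.0537 to 0.110). Among 33 tested nematode-specific peptide genes (48 members), nspe-7 rose from 0.0968, 0.0508 and 0.0532 CPM to 0.340, 0.479 and 1.90 CPM, a call lost without wt library 1 or 2 or 3 (adjusted p from 0.0581 to 0.182). Among 88 tested chemoreceptor genes (1270 members), srh-212 rose from 0.0807, 0.0761 and 0.0532 CPM to 0.663, 0.419 and 0.803 CPM, a call lost without glh1 library 1 or wt library 2 or 3 (adjusted p from 0.0752 to 0.0997). Both stayed under 2 CPM in every library. None of 57 tested transthyretin-related genes was called, with groups apart upward for 12 and downward for 4, where 9.48% and 8.08% of all genes were.

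The germline genes, among which GLH-1 acts, were with few exceptions not called in polysomal RNA with all libraries. Of 45 P granule component genes glh-1 itself was the one called, and the list's medians were -0.09, -0.10 and 0.05 in glh1 libraries 1, 2 and 3. No Argonaute gene (20 tested) and no gene of the RNA-dependent RNA polymerase and mutator list (39 tested) was called, with medians of -0.06 and -0.08. The largest Argonaute difference was that of alg-4, a gene of spermatogenesis, with 25.7, 11.6 and 15.5 CPM in wt and 30.5, 37.1 and 28.3 CPM in glh1 (adjusted p = 0.151). The near copy of glh-1, glh-2, had 56.3, 82.0 and 90.0 CPM in wt and 97.5, 116.4 and 192 CPM in glh1, a log2 difference of 0.83 ± 0.26 (SE; adjusted p = 0.150). The other family members glh-3 and glh-4 had log2 fold changes of 0.02 ± 0.18 (SE; adjusted p = 0.973) and 0.09 ± 0.21 (SE; adjusted p = 0.879). Of 51 meiotic chromosome genes plk-3 alone was called, and of 42 chromatin regulators, 27 oocyte RNA-binding proteins, 24 eggshell and yolk uptake genes and 35 germline stem cell and sex determination genes none was called, with or without library 3. Without library 3, 2 P granule genes were higher and 1 was lower. Wt culture 1 bore on these lists. With both of its libraries left out, 4.66% of all genes were lower and 4.11% higher. In that fit 5 P granule genes, 4 oocyte RNA-binding proteins and 3 germline stem cell and sex determination genes were lower. The medians of these 3 lists then were -0.23, -0.39 and -0.35, beside -0.05 over all genes. Higher in the same fit were 2 P granule genes, 1 oocyte RNA-binding protein and 2 Argonautes, and no Argonaute was lower. The RNA-dependent RNA polymerase and mutator list and the eggshell and yolk uptake list had 2 lower genes each. The meiotic chromosome genes and the chromatin regulators had 1 each.

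The glh1 minus wt medians of these germline lists were lower in total RNA than in polysomal RNA. Their medians in the 2 fractions were -0.09 in polysomal and -0.62 in total RNA for the oocyte RNA-binding proteins. For the germline stem cell and sex determination genes they were -0.19 and -0.46, and for the P granule components -0.09 and -0.38. No member passed the test of the difference between fractions with edgeR. In that test 3 of 27, 3 of 35 and 2 of 45 had an unadjusted p under 0.05, as had 491 of all 16526 genes. Over all genes the median was -0.01 in polysomal and -0.07 in total RNA. The gap was not particular to germline lists. The molting factors had -0.14 in polysomal and -0.30 in total RNA, and the nuclear pore and transport genes -0.06 and -0.33. The DExD/H helicases of the germline lacked it, at -0.09 and -0.02.

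Of the 53 gene lists, the histones had the largest median difference of the genotype effect between fractions, 0.67. Core histone mRNAs of C. elegans come from many near-identical gene copies and are used when DNA replicates. The 70 tested histone genes (82 members) had a median log2 fold change of 0.69 in polysomal and -0.17 in total RNA, and none was called. Where 491 of all 16526 genes had an unadjusted p under 0.05 for the difference between fractions, 16 of the 70 histone genes did. By library their polysomal medians were -0.08, 0.73 and 1.05 in glh1 libraries 1, 2 and 3 and -0.22, 0.08 and 0.07 in wt. The higher medians were thus in libraries 2 and 3, whose rRNA shares were 45.7% and 16.4%, and not in library 1, at 3.07%. In the wt libraries the shares were 4.89% to 9.51%. Whether the carry-over of RNA without poly(A) tails had a part in this was not tested. The histone gene nearest to the threshold, his-59, had 3.15, 4.49 and 3.75 CPM in wt and 5.997, 9.90 and 7.33 CPM in glh1 (adjusted p = 0.0859), and the linker histone gene hil-2 had 82.5, 120.4 and 98.1 CPM in wt and 50.9, 57.8 and 56.0 CPM in glh1 (adjusted p = 0.101).

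In some large families glh1 library 3 stood apart from its companions. Nuclear hormone receptors are transcription factors that bind small molecules, and of 192 tested (269 members) none was called. Their medians were 0.22, 0.26 and -0.68 in glh1 libraries 1, 2 and 3. In UDP-glucuronosyl transferases, which attach sugars to foreign compounds, the medians were 0.17, 0.12 and -0.86. For 33 nuclear hormone receptor genes both glh1 libraries 1 and 2 exceeded all wt libraries, and library 3 joined them for 5 of these and lay below all wt libraries for 19. Over all genes libraries 1 and 2 both exceeded all wt libraries for 3040 genes, and library 3 followed for 51.5% of them. The muscle sarcomere and attachment genes (55 tested) had similar medians in the glh1 libraries, -0.14, -0.15 and -0.22. The medians in wt libraries 1, 2 and 3 were higher, at 0.06, -0.04 and -0.04. Gene by gene, the glh1 values of these 55 genes were not similar. For 24 of them glh1 libraries 1 and 2 lay below all wt libraries, and library 3 did so too for 13 and lay above all wt libraries for the other 11. None was called, and every glh1 library was below every wt library for those 13, where 8.08% of all genes were.

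Some of the polysomal calls were also made in total RNA of the same cultures. Of 16526 genes 156 (0.944%) were called in total RNA, and 45 of the 90 higher and 38 of the 85 lower polysomal genes were called the same way there. No polysomal call had the opposite call in total RNA. The test of the difference between fractions called 0 genes (0%) with edgeR, where 491 had an unadjusted p under 0.05, and 3 with DESeq2. Some genes were called in polysomal RNA with a smaller value in total RNA, among them col-8, with log2 fold changes of -1.38 and -0.65 (adjusted p = 0.149), flp-17 with 0.98 and 0.39 (adjusted p = 0.355), and msrp-3 with -2.24 and -1.24 (adjusted p = 0.0835). None of these differences between fractions passed the test. The p-values rest on a spread pooled over all 12 libraries of both fractions. The total and polysomal libraries of 1 culture were counted in it as independent. There were 3 cultures of each genotype, and 1 polysomal library in each group stood apart from the other 2.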

How the data were processed

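Estimated counts of polyadenylated RNA for 46904 gene IDs were deposited for 12 libraries, 3 cultures of each genotype and fraction. A second table by the authors holds rlog values on a log2 scale for 12709 genes. The submitters' processing notes name Trimmomatic 0.36, STAR 2.6.1b, RSEM 1.3.0, R 3.6.1, DESeq2 1.24.0 and WBcel235. The tool that made the estimated counts, and whether counting used the strand of the stranded kit, are not given in the sources used here, so overlapping and near-identical genes are uncertain.

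The model of edgeR 4.0.16 (R 4.3.3), a quasi-likelihood test, took the estimated counts after rounding. It covered all 4 groups, with TMM scaling, for the 16526 genes that filterByExpr kept. The spread was estimated over both fractions together, with no term for the culture. P-values were adjusted by the Benjamini-Hochberg method over all genes tested, two-sided, and the threshold was 0.05. Over the genes tested, fold changes had a median SE of 0.305 (log2). Log2 CPM used a prior count of 2. Exact permutation of 3 against 3 libraries cannot go below p = 0.1, so no such test is given. Symbols, positions and summed exon lengths came from Ensembl release 115 (WBcel235), which gave a symbol for 44017 IDs. Genes of identical counts numbered 102 among those tested, 2 of them called higher.

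The comparison, the 53 gene lists and the tests were chosen with earlier results of these data known. Lists were described by counts and medians, without set tests. Named genes were the glh family, up to 15 called genes per direction by fold change with a class symbol, at least 1 CPM and a log2 change of at least 1, the gene of smallest p, and up to 5 called members per list or 2 nearest to the threshold. They also included the 10 genes furthest up and down in glh1 library 3, members of runs of at least 3 called genes, and cell type markers. The gene C50F7.5, the vitellogenin genes and some list members outside this rule were chosen after their values were seen. Alternatives covered other scalings, filters, tools (DESeq2 1.42.0, limma 3.58.1), subsets of libraries, a replicate block, a culture term and removal of rRNA genes or of a trend on exon length. The model was tested on simulated data for glh1 against wt in polysomal RNA with 16526 genes. It called 99 of 100 genes changed 4-fold, 40 of 100 changed 2-fold and 4 genes that had not been changed. Changed genes were drawn from those above 5 CPM. The simulated libraries had no library that stood apart and no link between the fractions of a culture. These counts therefore do not give the power or the error rate in the real libraries. Figures were drawn with matplotlib 3.10.9.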

Additional observations from a re-analysis of the deposited data

How the results depend on the processing

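The counts of 90 higher and 85 lower genes and of 0 genes for the difference between fractions stayed within 1.5 times under DESeq2 size factors (89, 88 and 0), upper-quartile scaling (71, 67 and 0), no filter (69, 92 and 0), rRNA genes removed (86, 84 and 0), the culture as a random effect (87, 85 and 0) and limma on the rlog values (69, 58 and 0). A strict filter of 5 CPM in 3 libraries, which tests fewer genes, gave 46 and 42, a 2-fold minimum gave 5 and 9, and the 6 polysomal libraries alone gave 0 and 3. DESeq2 gave 458, 307 and 3, removal of the length trend 146 and 179, and leaving out both libraries of wt culture 1 682 and 774; the cause was not tested. Leaving out 1 polysomal library gave 16 to 154 higher genes, 30 to 248 lower genes, and 0 to 1 genes for the difference between fractions. An alternative chosen after the data were seen, the 5 polysomal libraries without glh1 library 3, gave 33 higher and 98 lower genes. The replicate block gave 90, 93 and 0, and it kept 75 of the higher and 79 of the lower calls. The numbers are not shown to pair the cultures, since deviations of same-numbered polysomal libraries correlated at 0.201, 0.0518 and 0.306. Of the named genes, glh-4, which was not called, had a log2 fold change of 0.09 with all libraries and -0.0988 without glh1 library 3. Medians of several lists changed sign as well. That of the Argonautes, -0.06, was 0.07 without glh1 library 3 and 0.02 with the length trend removed. That of the SCP/TAPS and thaumatin genes, 0.04, was -0.01 with the length trend removed, and that of all genes, -0.01, was 0.03 with upper-quartile scaling. Some medians further from 0 also changed sign without glh1 library 3. Among them, lysozymes and saposin-like genes went from 0.42 to -0.08 and epidermal antimicrobial peptide genes from 0.39 to -0.16. The proteasome genes went from 0.33 to -0.005. The polysomal libraries held 35930865 to 45704125 estimated counts, and counting error covers neither the scatter of glh1 library 3 nor that of wt library 1.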

Other observations

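In total RNA glh1 library 3 did not stand apart as it did in polysomal RNA. Deviations from the group mean in total and polysomal RNA of 1 culture correlated across genes at 0.756, 0.440 and 0.303 in wt cultures 1, 2 and 3. In glh1 cultures 1, 2 and 3 they correlated at 0.0989, -0.163 and -0.206. The position of wt library 1 was thus shared by the total RNA of its culture, and that of glh1 library 3 was not. These correlations are over genes of the same libraries and are a description.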
